A study of Mus musculus with 8 samples.

Results

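The genes described here encode the TGF-beta, BMP and activin signaling system, from secreted ligands to SMAD proteins and target genes. They were chosen as a fixed list of 49 genes, each represented by the probe set whose only annotated gene is that member. Of these, 48 were measured, each by 1 probe set, among 19937 genes with such a probe set. Gdf15, a distant member of the ligand family, was not analysed here. The values came from 8 Affymetrix Mouse Gene 1.0 ST arrays of total mammary cell suspensions that had not been sorted by FACS, in 2 groups of 4 arrays: parous mice and virgin controls of the same age. All mice were FVB/NHanHsd, an inbred strain, without transgene or drug treatment, and each array held RNA pooled from the 4th mammary glands of 5 mice. The parous mice were mated at the age of 42 days, gave birth, and lactated for 21 days. The labels give 28 days of involution and the methods give 40 days after weaning, and both groups were the same age at collection. Preparation took away lymph nodes, floating adipocytes and red blood cells, and fibroblasts were depleted by letting them attach. The suspensions were thus enriched for epithelial cells but still held other cell types. The study grouped at least 5 mice per harvest as a control for the estrous cycle, but the stage of the cycle is not given for each pool.

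In this signaling system, dimeric ligands bind pairs of type I and type II serine/threonine kinase receptors, which phosphorylate receptor-regulated SMADs that enter the nucleus with Smad4. TGF-beta and activin ligands signal mainly through Smad2 and Smad3, and BMP ligands mainly through Smad1, Smad5 and Smad9. TGF-beta is secreted in a latent complex with binding proteins of the extracellular matrix, BMPs and activins are held back by secreted antagonists, and Smad6 and Smad7 inhibit the receptors from inside the cell. In the mammary gland TGF-beta is known to restrain the growth of ducts and to take part in the cell death of involution, BMPs take part in the differentiation of luminal and myoepithelial cells, and activin takes part in ductal and alveolar development.

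The question addressed was whether the level of any of these genes differed between parous and virgin suspensions. Values are log2 RMA values (background-corrected, quantile-normalized signals, where 1 unit is a doubling), and a log2 fold change is the parous mean minus the virgin mean. A gene passed the criteria when it differed by over 1.5-fold, with a Benjamini-Hochberg adjusted p below 0.05 and an average log2 value above 2. No member passed them in either direction. Over all genes, 0.181% passed as higher and 0.221% as lower in parous suspensions. The lowest adjusted p of a member was 0.101, for Gdf10. At an unadjusted p under 0.05, 11 of the 48 members were higher (22.9%, against 6.54% of all genes) and 7 were lower (14.6%, against 7.5% of all genes). The parous and virgin arrays did not overlap in 5 members that were higher (10.4%, against 4.61% of all genes) and in 4 that were lower (8.33%, against 4.95% of all genes). After each array was centered on its median, the groups did not overlap in 3 higher members (6.25%, against 3.67% of all genes) and 3 lower members (6.25%, against 5.66% of all genes). The median log2 fold change was 0.11 over the members and 0.00 over all genes, and 66.7% of the members and 50.7% of all genes had a value above 0. The median size of the difference, regardless of direction, was 0.25 over the members and 0.11 over all genes. All genes were not matched to the members for signal level. Of the 48 members, 4 had a dim probe set, with a mean below the lowest array median of 6.29. The part of signal level in these contrasts was not tested. In these bulk suspensions, fewer cells of a type and less RNA per cell cannot be told apart.

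**Figure D1:**
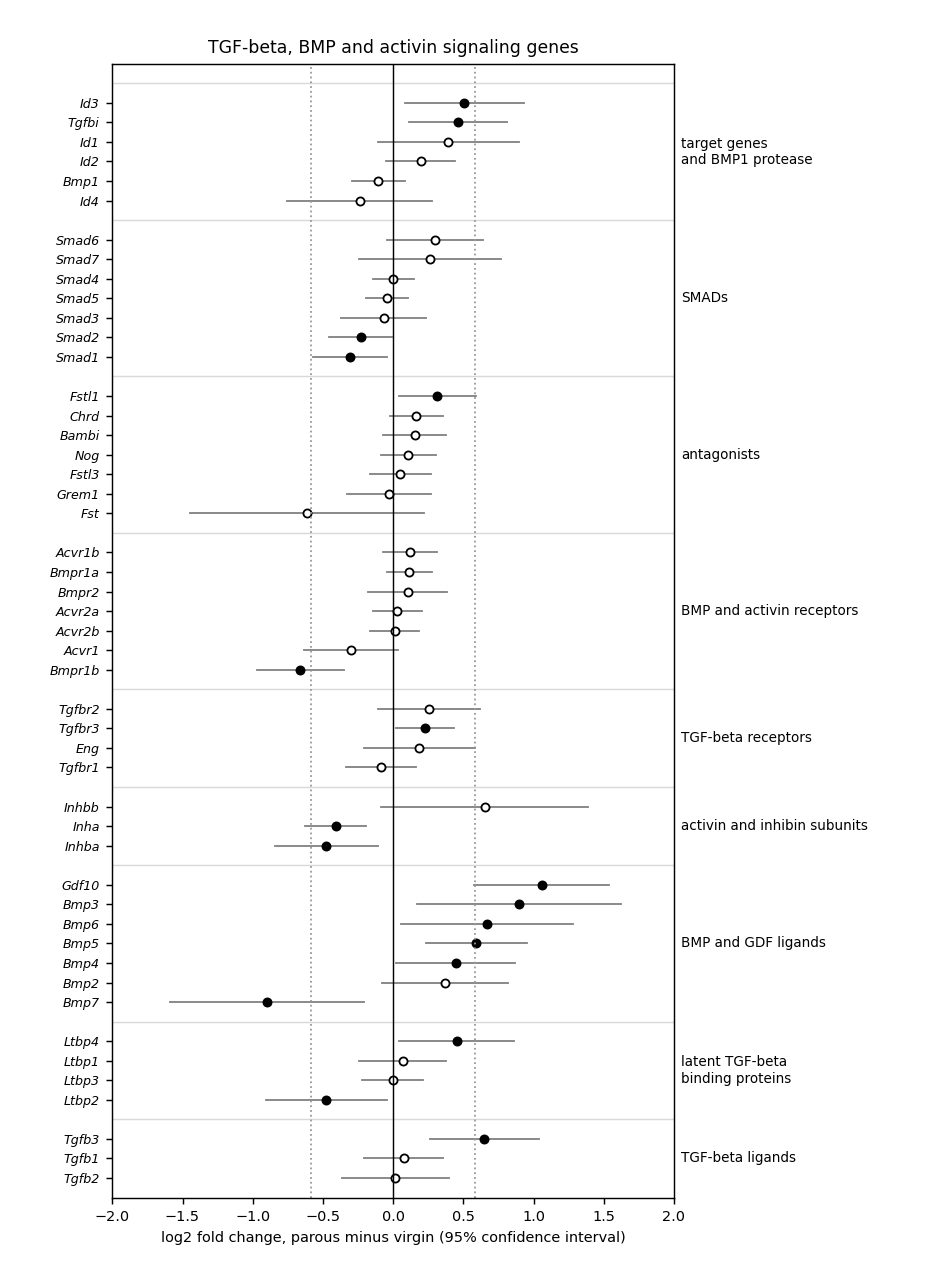
Log2 fold change of each measured member, parous minus virgin, grouped by role, with the 95% confidence interval from limma. Filled points have an unadjusted p under 0.05, and dotted lines mark a 1.5-fold difference. Gdf10 lies farthest to the right at 1.06 and Bmp7 farthest to the left at -0.90; no member passed the criteria.

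Virgin replicates 2 and 4 stood apart from the other arrays in the proliferation genes, and many of the differences were smaller without them. A score here averages the genes of a list on each array, every gene being centered on its own 8-array mean. Over 24 proliferation genes the score reached 1.07 in virgin replicate 2 and 1.57 in virgin replicate 4. It was -0.22 in virgin replicate 1, -0.21 in virgin replicate 3 and between -0.77 and -0.40 in parous arrays. Of the cell type markers described below, the pericyte, macrophage and lymphocyte scores were lowest on these same virgin replicates 2 and 4. In that order of arrays they were -0.34 and -0.64 for pericytes, -0.38 and -0.42 for macrophages, and -0.99 and -0.91 for lymphocytes. The fibroblast score was -0.48 and 0.07 there. Virgin replicate 4 had the lowest value of the 8 arrays in 24 of the 48 members and the highest in 8. Over all probe sets it had the highest median, 6.43. Its array weight from limma, which is lower for arrays that vary more around their group, was 0.42, against 0.75 to 1.90 for the others. Each member with an unadjusted p under 0.05 is therefore also given below without virgin replicates 2 and 4. In that comparison 3 members were higher at an unadjusted p under 0.05 (6.25%, against 3.75% of all genes) and 5 were lower (10.4%, against 3.94% of all genes). The 3 higher members were Gdf10, Tgfb3 and Bmp5, and the 5 lower members were Bmpr1b, Inha, Inhba, Bmp7 and Ltbp2. All 18 members with an unadjusted p under 0.05 on 8 arrays had the same sign without these arrays, and in 17 of them the difference was smaller, with Ltbp2 as the exception. These 18 were picked by their differences on all 8 arrays, and the second comparison reuses the remaining arrays. The same sign and the smaller size therefore follow in part from this choice, and no share of all genes is given beside these counts. Over the 48 members, 38 had the same sign, and the others were Tgfb1, Ltbp1, Tgfbr1, Tgfbr2, Eng, Bmpr2, Acvr2b, Fst, Fstl3 and Smad7. The part of proliferating cells, or of the other cell types, in these differences was not tested.

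**Figure D2:**
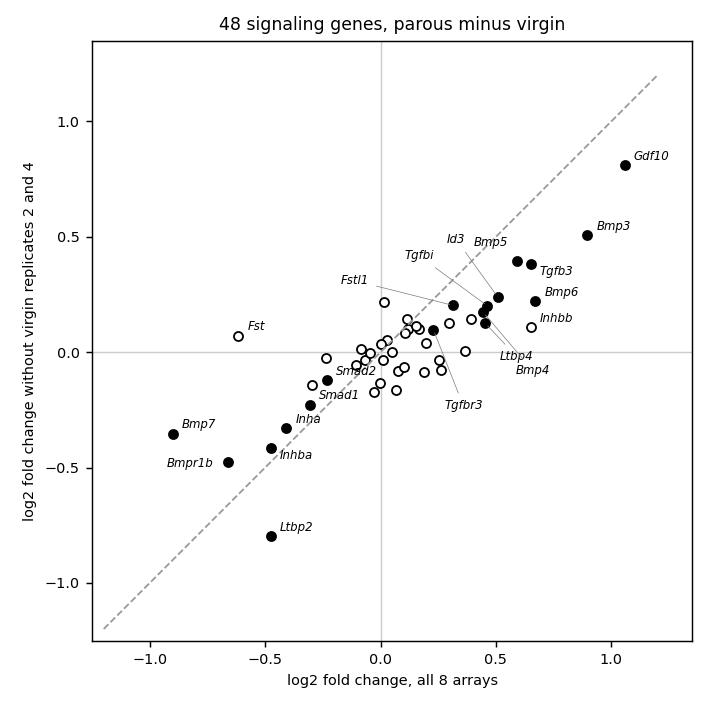
Log2 fold change of the 48 members on all 8 arrays (horizontal axis) against that without virgin replicates 2 and 4 (vertical axis), with the dashed line marking equal values. Filled points have an unadjusted p under 0.05 on 8 arrays. Most filled points lie closer to 0 on the vertical axis than on the horizontal axis, for example Bmp7 at -0.90 and -0.35, whereas Ltbp2 goes from -0.48 to -0.80.

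The suspensions carried high levels of the epithelial keratins Krt8 and Krt18 (mean log2 values of 13.19 and 13.08) and of Acta2, an actin of myoepithelial cells and pericytes (12.78), which fits their label of mammary epithelial cells. Markers of other cells were also well above the array medians of 6.29 to 6.43, among them Vim (12.94) and Dcn (12.74) of fibroblasts, Cdh5 (11.97) of endothelial cells, Rgs5 (11.60) of pericytes and C1qb (11.62) of macrophages. Of the 13 fibroblast markers, 5 were higher and none was lower at an unadjusted p under 0.05, and none passed the criteria. At this limit 6.54% of all genes were higher and 7.5% were lower. The fibroblast score was -0.14 to 0.53 in parous and -0.48 to 0.07 in virgin arrays. Of the 6 pericyte markers, 2 were higher and none was lower, with scores of -0.02 to 0.43 in parous and -0.64 to 0.16 in virgin arrays. Of the 12 endothelial markers none was higher or lower at this limit, with scores of -0.24 to 0.39 and -0.68 to 0.30. Of the 11 basal and myoepithelial markers, 6 were lower and none was higher, and the scores did not overlap (-0.36 to -0.14 in parous, 0.04 to 0.36 in virgin arrays). The 6 were Krt14, Krt5, Krt17, Trp63, Lgr5 and Cdh3. The other 5 were not called and lay in both directions, with log2 fold changes of -0.10 for Acta2, -0.18 for Cnn1, -0.33 for Oxtr, 0.24 for Myh11 and 0.20 for Mylk. The lower score thus does not stand for every gene of the list. The keratin Krt17 passed the criteria as lower (log2 fold change -1.18, adjusted p = 0.0167), but not without virgin replicate 2 or any 1 of the parous arrays (adjusted p up to 0.0728). Of the 7 measured genes listed as hormone-sensing luminal markers, 5 were lower and 1 was higher. The higher one, Cd14, is also expressed by other cells and does not single out hormone-sensing cells. The scores of this list, with Cd14 included, did not overlap either (-0.54 to -0.21 in parous, 0.10 to 0.52 in virgin arrays). The ligand Wnt4 passed as lower (-0.82, adjusted p = 0.00696), also with any 1 array left out (adjusted p up to 0.0441). Of the 9 luminal epithelial markers, 5 were lower and 1, Elf3, was higher, and none passed the criteria (Krt19, at an adjusted p of 0.0436, differed by 1.39-fold), with scores of -0.14 to 0.01 in parous and -0.02 to 0.14 in virgin arrays. Of the 10 macrophage markers, 1 was higher and none was lower, with scores of -0.18 to 0.48 and -0.42 to 0.10. Of the 9 measured lymphocyte markers, 1 was higher and none was lower, with scores of -0.26 to 1.01 and -0.99 to 1.08. This was Jchain, of antibody-secreting cells, which passed the criteria (log2 fold change 2.36, adjusted p = 0.0173), but not without virgin replicate 1 or 2 or any 1 of the parous arrays (adjusted p up to 0.0830). Cd14, Krt17, Wnt4, Krt19, Elf3 and Jchain are named because of their values, and the basal and myoepithelial markers are all named to show both directions. Each marker of these lists had a mean above the lowest array median, but some fell below it on single arrays. Ms4a1 of lymphocytes, with a mean of 6.475, was below it on most arrays, down to 5.10 in parous replicate 3. The part of these cell types in the values of the members was not tested.

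**Figure D3:**
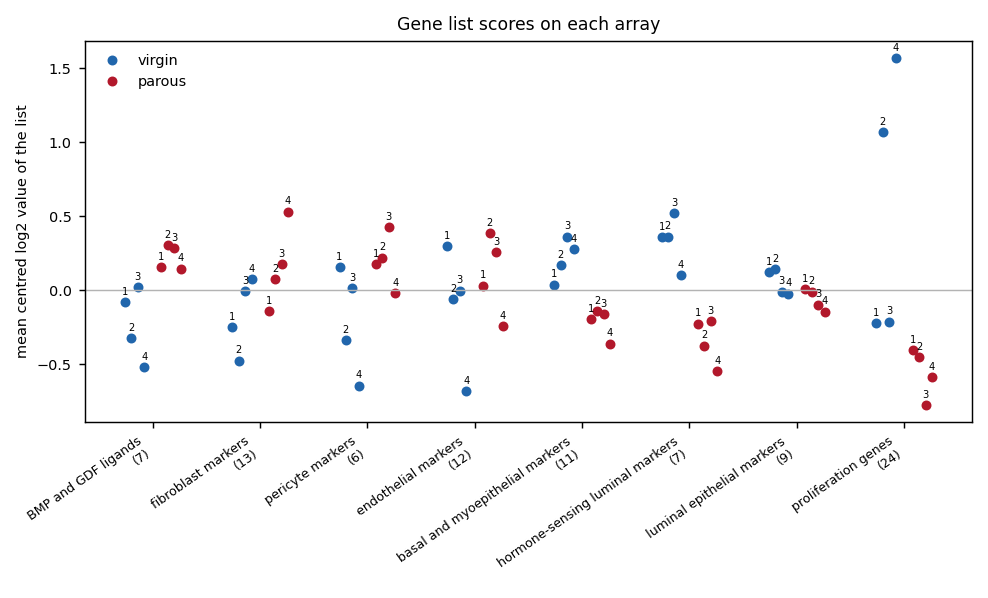
Score of the BMP and GDF ligands and of 7 marker lists on each array (mean centered log2 value, number of genes in parentheses), with virgin arrays in blue, parous arrays in red and the replicate number above each point. The basal and hormone-sensing luminal scores of parous arrays lie below those of all virgin arrays, and virgin replicates 2 and 4 stand apart in the proliferation genes at 1.07 and 1.57.

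The upstream sequences of members whose groups did not overlap are shown first, to set their promoters beside their levels. The promoter table, from RefSeq on the GRCm38.p6 assembly of the C57BL/6J reference strain, held 35 of the 48 members with 43 promoters. The 250 bases before the transcription start were searched for GGCGCC, a site bound by Smad1 and Smad5, and for CAGAC, the core of a SMAD-binding element. Both strands were searched, and a match to the latter on the opposite strand reads, in the printed direction, GTCTG. The former motif is its own reverse complement, and the 2 motifs can share at most 1 base. GGCGCC was found in 11 of the 43 member promoters (25.6%) and in 9.59% of all 32851 promoters, and CAGAC, on either strand, in 21 of the 43 (48.8%) and in 42.2% of all promoters. A gene with several starts counts once for each start, and its windows can overlap, as those of Ltbp4 with GGCGCC do. All promoters were not matched to those of the members for their content of G and C, the only bases of GGCGCC. These contrasts were not tested. The members with 1 start in the table and no overlap between the groups follow, 5′ to 3′ up to the base before the start, with the matches to the SMAD-binding element, on either strand, in capitals. Their positions are chr14:33923337-33923586 for Gdf10, chr9:75775115-75775364 for Bmp5, chr4:136143572-136143821 for Id3, chr1:75507359-75507608 for Inha and chr13:16011601-16011850 for Inhba, all on the plus strand.
Gdf10: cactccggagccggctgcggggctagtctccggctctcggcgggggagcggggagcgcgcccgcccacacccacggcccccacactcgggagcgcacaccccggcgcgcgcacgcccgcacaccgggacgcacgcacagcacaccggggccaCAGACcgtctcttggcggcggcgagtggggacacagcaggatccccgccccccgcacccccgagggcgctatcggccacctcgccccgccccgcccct
Bmp5: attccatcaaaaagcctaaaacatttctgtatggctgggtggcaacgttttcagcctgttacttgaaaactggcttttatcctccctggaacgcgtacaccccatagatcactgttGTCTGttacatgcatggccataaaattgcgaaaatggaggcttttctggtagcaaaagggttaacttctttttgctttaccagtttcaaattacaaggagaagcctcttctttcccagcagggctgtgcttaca
Id3: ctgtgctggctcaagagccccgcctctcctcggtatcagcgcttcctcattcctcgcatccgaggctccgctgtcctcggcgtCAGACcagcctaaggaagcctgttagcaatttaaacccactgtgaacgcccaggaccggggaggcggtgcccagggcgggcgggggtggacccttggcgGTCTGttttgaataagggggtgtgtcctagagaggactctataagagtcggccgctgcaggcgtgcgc
Inha: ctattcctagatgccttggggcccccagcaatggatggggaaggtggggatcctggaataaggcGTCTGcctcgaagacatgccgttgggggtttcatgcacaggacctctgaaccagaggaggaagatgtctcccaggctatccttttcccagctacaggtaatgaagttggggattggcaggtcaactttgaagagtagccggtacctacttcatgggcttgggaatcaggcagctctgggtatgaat
Inhba: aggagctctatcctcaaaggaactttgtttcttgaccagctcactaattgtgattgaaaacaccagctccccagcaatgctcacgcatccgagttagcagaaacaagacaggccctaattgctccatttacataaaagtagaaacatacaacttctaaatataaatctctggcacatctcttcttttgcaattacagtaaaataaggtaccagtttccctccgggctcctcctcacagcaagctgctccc
Id3 held 2 matches to CAGAC, Gdf10, Bmp5 and Inha held 1 each, and Inhba held none. None of these windows held GGCGCC. A match describes letters in the reference sequence of another strain, and no binding was measured.

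Among the TGF-beta ligands, Tgfb3 was higher in parous suspensions and Tgfb1 and Tgfb2 were close to equal, although Tgfb3 did not pass the criteria. Tgfb3 is the isoform known for its increase in milk stasis and early involution. Its log2 values were 11.90, 11.87, 12.18 and 12.03 in parous replicates 1 to 4 and 11.48, 11.23, 11.74 and 10.92 in virgin replicates 1 to 4. All parous arrays lay above all virgin arrays, and virgin replicate 4 was lowest. Its log2 fold change of 0.65 (standard error 0.17, a 1.57-fold difference) had an adjusted p of 0.198 from limma, and the exact 2-sided permutation p was 0.0286, the lowest that 4 arrays against 4 allow. Every gene whose groups do not overlap has this permutation p, so here and below it only restates the lack of overlap. Without virgin replicates 2 and 4 the difference was 0.38. Tgfb1, the isoform most widely expressed, had means of 10.49 in parous and 10.42 in virgin arrays, a difference of 0.07 (95% confidence interval -0.21 to 0.36). Without virgin replicates 2 and 4 it was -0.08. Tgfb2 had a difference of 0.01 (-0.37 to 0.39), or 0.22 without these arrays, and its virgin values ran from 9.38 to 10.22, wider than the parous range of 9.70 to 10.02.

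The latent TGF-beta binding proteins, which tether latent TGF-beta to the matrix, went in different directions. Ltbp4, a binding protein of elastic tissue, was at 10.93, 10.98, 11.16 and 11.08 in parous and at 10.97, 10.34, 10.86 and 10.16 in virgin arrays. The groups overlapped in virgin replicate 1. Its log2 fold change was 0.45 (standard error 0.18, adjusted p = 0.388), and 0.12 without virgin replicates 2 and 4. Ltbp2, a matrix protein of the same family that does not bind latent TGF-beta, was at 9.09, 8.75, 8.78 and 8.74 in parous and at 9.56, 9.13, 9.71 and 8.86 in virgin arrays. Parous replicate 1 and virgin replicate 4 were the arrays that overlapped. The difference of -0.48 (standard error 0.19, adjusted p = 0.388) went to -0.80 without virgin replicates 2 and 4, with an adjusted p of 0.0923. Ltbp1 and Ltbp3 had differences of 0.07 and 0.00, with confidence intervals of -0.24 to 0.38 and -0.22 to 0.21. Without virgin replicates 2 and 4 their differences were -0.16 and -0.13.

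The BMP and GDF ligands held the largest differences of the whole set. Of the 7 measured, 5 were higher (against 6.54% of all genes) and 1, Bmp7, was lower (against 7.5% of all genes) at an unadjusted p under 0.05. None passed the criteria, and their median log2 fold change was 0.59, against 0.00 over all genes. Without virgin replicates 2 and 4 the median was 0.22, with no value over all genes beside it. Gdf10 and Bmp5 then remained at an unadjusted p under 0.05 as higher (against 3.75% of all genes) and Bmp7 as lower (against 3.94% of all genes). The fibroblast and pericyte scores given above ran higher in parous arrays, with overlap between the groups, and their part in these ligands was not tested.

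Gdf10, also called BMP3B, a ligand close to Bmp3 that is known as a marker of a subset of fibroblasts in several tissues, had the largest difference of all members. It was at 9.53, 9.72, 9.97 and 9.99 in parous and at 8.64, 8.33, 9.35 and 8.67 in virgin arrays. The groups did not overlap, and virgin replicate 3 lay closest to the parous arrays. For Gdf10 the log2 fold change was 1.06 (standard error 0.21, a 2.08-fold difference, adjusted p = 0.101), with an exact 2-sided permutation p of 0.0286. It was 0.81 without virgin replicates 2 and 4. Without virgin replicate 3 it was the one member to pass the criteria, at a log2 fold change of 1.26 and an adjusted p of 0.0136, and over the comparisons that left out 1 array the adjusted p ran from 0.0136 to 0.301. Bmp3, a ligand that antagonizes other BMPs in bone, was at 9.36, 9.07, 9.05 and 8.42 in parous and at 8.31, 8.20, 8.63 and 7.18 in virgin arrays. Parous replicate 4 lay below virgin replicate 3, so the groups overlapped. Its log2 fold change was 0.90 (standard error 0.32, adjusted p = 0.333), and 0.51 without virgin replicates 2 and 4.

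Bmp4, Bmp5 and Bmp6 are ligands that activate Smad1 and Smad5. Bmp5 was at 7.40, 7.79, 7.99 and 7.82 in parous and at 7.31, 7.04, 7.40 and 6.88 in virgin arrays. The groups did not overlap, but parous replicate 1 and virgin replicate 3 lay side by side. For Bmp5 the log2 fold change was 0.59 (standard error 0.16, adjusted p = 0.202), and 0.40 without virgin replicates 2 and 4. Bmp6 was at 9.22, 9.32, 9.33 and 9.06 in parous and at 9.15, 8.48, 8.88 and 7.75 in virgin arrays, with virgin replicate 4 far below the rest. Its difference of 0.67 (standard error 0.27, adjusted p = 0.391) went to 0.22 without virgin replicates 2 and 4. Bmp4 was at 9.84, 10.33, 10.27 and 10.27 in parous and at 10.17, 9.55, 9.84 and 9.37 in virgin arrays. Parous replicate 1 was the low array of its group and fell within the virgin range. Its difference was 0.45 (standard error 0.18, adjusted p = 0.408), and 0.17 without virgin replicates 2 and 4. Bmp2, the ligand closest to Bmp4 in sequence, had means of 8.69 and 8.32, a difference of 0.37 (95% confidence interval -0.08 to 0.82), which was 0.01 without these arrays.

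Bmp7, a ligand best known from kidney and eye development, went the other way. It was at 8.29, 8.39, 8.08 and 8.10 in parous and at 8.48, 9.32, 8.65 and 10.00 in virgin arrays. All parous arrays lay below all virgin arrays, and virgin replicates 2 and 4 were the highest. For Bmp7 the log2 fold change was -0.90 (standard error 0.30, adjusted p = 0.312), with an exact 2-sided permutation p of 0.0286, and it was -0.35 without virgin replicates 2 and 4.

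**Figure D4:**
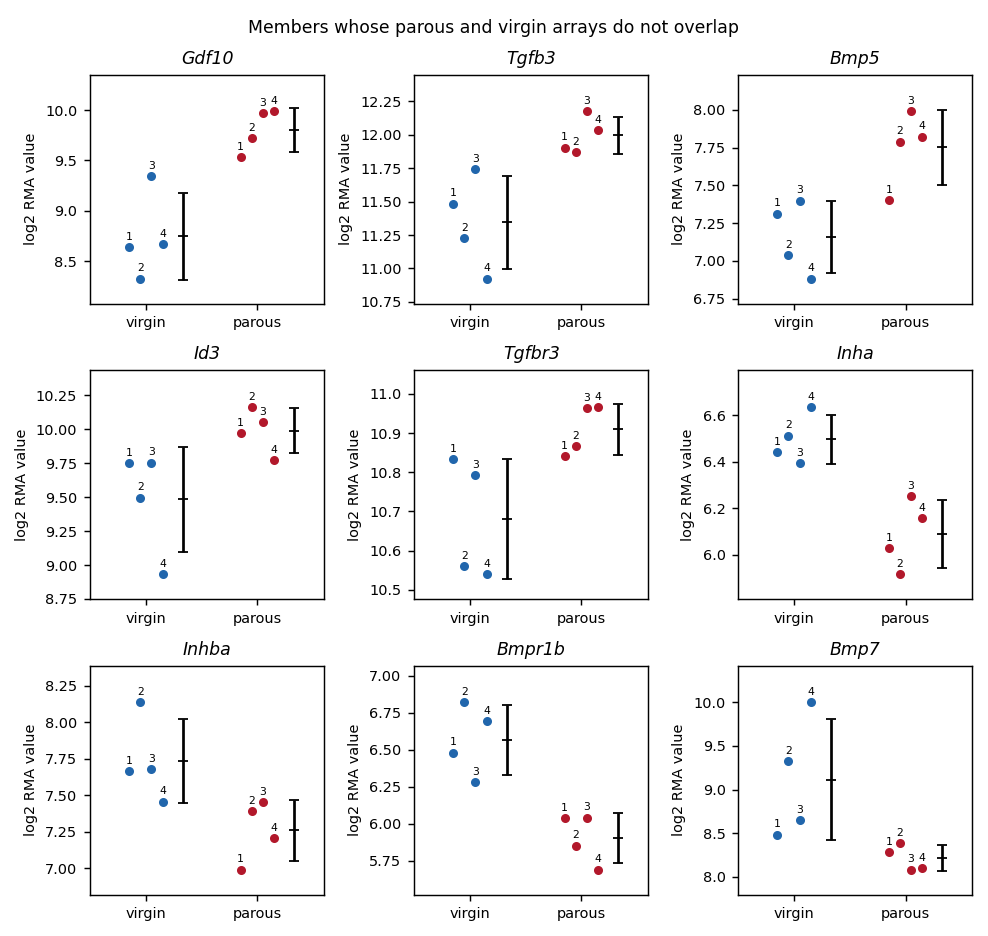
Log2 RMA value on each array for the 9 members whose parous (red) and virgin (blue) arrays do not overlap, with replicate numbers above the points and the mean with 1 SD beside each group. Gdf10, Tgfb3, Bmp5, Id3 and Tgfbr3 are higher and Inha, Inhba, Bmpr1b and Bmp7 lower in parous arrays; after centering each array on its median, Id3, Tgfbr3 and Inhba overlap.

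Activins are dimers of beta subunits, and inhibins pair the alpha subunit with a beta subunit and block activin signaling. Of the 3 subunit genes, Inha and Inhba were lower in parous suspensions at an unadjusted p under 0.05, without passing the criteria, and Inhbb was not called. Inhba, which encodes the beta A subunit of activin A, was at 6.99, 7.39, 7.45 and 7.21 in parous and at 7.67, 8.14, 7.68 and 7.46 in virgin arrays. The groups did not overlap, although parous replicate 3 and virgin replicate 4 were nearly equal. Its difference was -0.48 (standard error 0.16, adjusted p = 0.310), and -0.41 without virgin replicates 2 and 4. Inha, the alpha subunit of inhibin, was at 6.03, 5.92, 6.25 and 6.16 in parous and at 6.44, 6.51, 6.40 and 6.64 in virgin arrays. All parous arrays lay below all virgin arrays, but the probe set was dim, with a mean at or below the lowest array median of 6.29. Its difference was -0.41 (standard error 0.10, adjusted p = 0.155), and -0.33 without virgin replicates 2 and 4. Inhbb, which encodes the beta B subunit, was at 9.33 to 9.75 in parous and at 7.83 to 9.45 in virgin arrays, with virgin replicate 4 lowest. Its difference of 0.65 (95% confidence interval -0.08 to 1.39, adjusted p = 0.503) was 0.11 without virgin replicates 2 and 4. The median over these subunits was -0.41, which is the value of the dim Inha probe set, and it was 0.09 when dim probe sets were left out. As for cell types, the basal and hormone-sensing luminal scores were lower in the same parous arrays. Their part in the subunit values was not tested.

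Of the receptors for TGF-beta, Tgfbr3 differed at an unadjusted p under 0.05. Tgfbr3, or betaglycan, is a coreceptor that presents TGF-beta2 and also binds inhibin. It was at 10.84, 10.87, 10.96 and 10.97 in parous and at 10.83, 10.56, 10.79 and 10.54 in virgin arrays. The groups did not overlap, by a narrow margin between parous replicate 1 and virgin replicate 1. The log2 fold change was 0.23 (standard error 0.09, adjusted p = 0.390), and 0.10 without virgin replicates 2 and 4. The type II receptor Tgfbr2 had a difference of 0.25 (95% confidence interval -0.11 to 0.62), which was -0.03 without these arrays, and the type I receptor Tgfbr1 had one of -0.09 (-0.34 to 0.16). Eng, or endoglin, a coreceptor of endothelial cells, had a difference of 0.19 (-0.21 to 0.58), and -0.09 without virgin replicates 2 and 4. Its lowest value was 11.39, in virgin replicate 4, the array with the lowest endothelial score. That array was also lowest in 24 of the 48 members, and the part of endothelial cells in the Eng values was not tested.

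Among the 7 BMP and activin receptors, Bmpr1b had the lowest adjusted p, and the others differed by 0.30 or less on the log2 scale. Bmpr1b, a type I receptor for BMPs and GDFs, was at 6.04, 5.85, 6.04 and 5.69 in parous and at 6.48, 6.82, 6.28 and 6.69 in virgin arrays. All parous arrays lay below all virgin arrays, and the probe set was dim, with a mean at or below the lowest array median. For Bmpr1b the log2 fold change was -0.66 (standard error 0.14, a 1.58-fold difference, adjusted p = 0.110), with an exact 2-sided permutation p of 0.0286, and it was -0.47 without virgin replicates 2 and 4. Acvr1, also called ALK2, a type I receptor for BMPs, had a difference of -0.30 (95% confidence interval -0.63 to 0.04), or -0.14 without virgin replicates 2 and 4, and its virgin values were 9.76 to 9.86 except for 9.21 in virgin replicate 3. Bmpr1a, the more widely expressed type I BMP receptor, was at 10.49 to 10.62 in parous and at 10.37 to 10.52 in virgin arrays, a difference of 0.12 (-0.04 to 0.27). Bmpr2, the type II receptor for BMPs, differed by 0.10 (-0.18 to 0.39). The activin receptors Acvr1b, Acvr2a and Acvr2b differed by 0.12, 0.03 and 0.01, and their intervals lay between -0.16 and 0.32.

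The antagonists, which bind ligands outside the cell or, for Bambi, act as a receptor without kinase, had a median log2 fold change of 0.11, close to that of the whole set. Fstl1, a follistatin-like secreted protein made by mesenchymal cells, was the single one at an unadjusted p under 0.05. It was at 11.17, 11.34, 11.45 and 11.52 in parous and at 11.18, 10.76, 11.15 and 11.12 in virgin arrays. Parous replicate 1 and virgin replicate 1 overlapped, and virgin replicate 2 was lowest. The log2 fold change was 0.31 (standard error 0.12, adjusted p = 0.371), and 0.20 without virgin replicates 2 and 4. Fst, or follistatin, which binds activin, was at 8.47, 8.97, 8.79 and 8.83 in parous and at 8.66, 9.77, 8.72 and 10.37 in virgin arrays. The virgin arrays split into replicates 2 and 4, which were above all parous arrays, and replicates 1 and 3, which were within the parous range. Its difference of -0.62 (95% confidence interval -1.45 to 0.22, adjusted p = 0.592) was 0.07 without virgin replicates 2 and 4. The BMP antagonists Chrd, Nog and Grem1 differed by 0.17, 0.11 and -0.03, and the probe sets of Chrd and Grem1 were dim. Bambi differed by 0.15 (-0.07 to 0.38) and Fstl3 by 0.05 (-0.17 to 0.27).

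The SMADs showed small differences. Smad1, which carries BMP signals, was at 8.29, 8.40, 8.20 and 8.06 in parous and at 8.65, 8.70, 8.29 and 8.55 in virgin arrays. The groups overlapped in virgin replicate 3. The log2 fold change was -0.31 (standard error 0.11, adjusted p = 0.362), and -0.23 without virgin replicates 2 and 4. Smad2, which carries TGF-beta and activin signals, was at 9.30, 9.21, 9.12 and 9.14 in parous and at 9.44, 9.47, 9.20 and 9.61 in virgin arrays. Here too virgin replicate 3 lay within the parous range. Its difference was -0.23 (standard error 0.10, adjusted p = 0.424), and -0.12 without virgin replicates 2 and 4. The shared partner Smad4 was level, at 11.20 in both groups with a confidence interval of -0.14 to 0.15 for the difference, and Smad3 and Smad5 differed by -0.07 and -0.04. The inhibitory SMADs, which are themselves induced by the pathway, differed by 0.30 for Smad6 (-0.04 to 0.64) and 0.26 for Smad7 (-0.25 to 0.77), and by 0.13 and -0.08 without virgin replicates 2 and 4.

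Of the target genes and the protease in the list, Tgfbi and Id3 were higher in parous suspensions at an unadjusted p under 0.05. Tgfbi, a matrix protein induced by TGF-beta, was at 11.31, 11.10, 11.32 and 11.44 in parous and at 11.06, 10.54, 11.13 and 10.60 in virgin arrays. Parous replicate 2 lay just below virgin replicate 3. The log2 fold change was 0.46 (standard error 0.15, adjusted p = 0.304), and 0.20 without virgin replicates 2 and 4. The Id genes encode inhibitors of helix-loop-helix transcription factors and are direct targets of BMP signaling. Id3 was at 9.97, 10.17, 10.05 and 9.78 in parous and at 9.75, 9.50, 9.75 and 8.93 in virgin arrays. The groups did not overlap, with a small gap between parous replicate 4 and virgin replicate 3. Its difference was 0.51 (standard error 0.19, adjusted p = 0.350), and 0.24 without virgin replicates 2 and 4. Id1 and Id2 differed by 0.39 (95% confidence interval -0.11 to 0.90) and 0.20 (-0.05 to 0.44), and Id4 by -0.24 (-0.75 to 0.28). Without virgin replicates 2 and 4 these differences were 0.14, 0.04 and -0.02. Virgin replicate 4 was lowest in Id1, Id2 and Id3 and highest in Id4. Bmp1, a protease that cleaves procollagen and the BMP antagonist chordin, differed by -0.10 (-0.30 to 0.09).

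**Figure D5:**
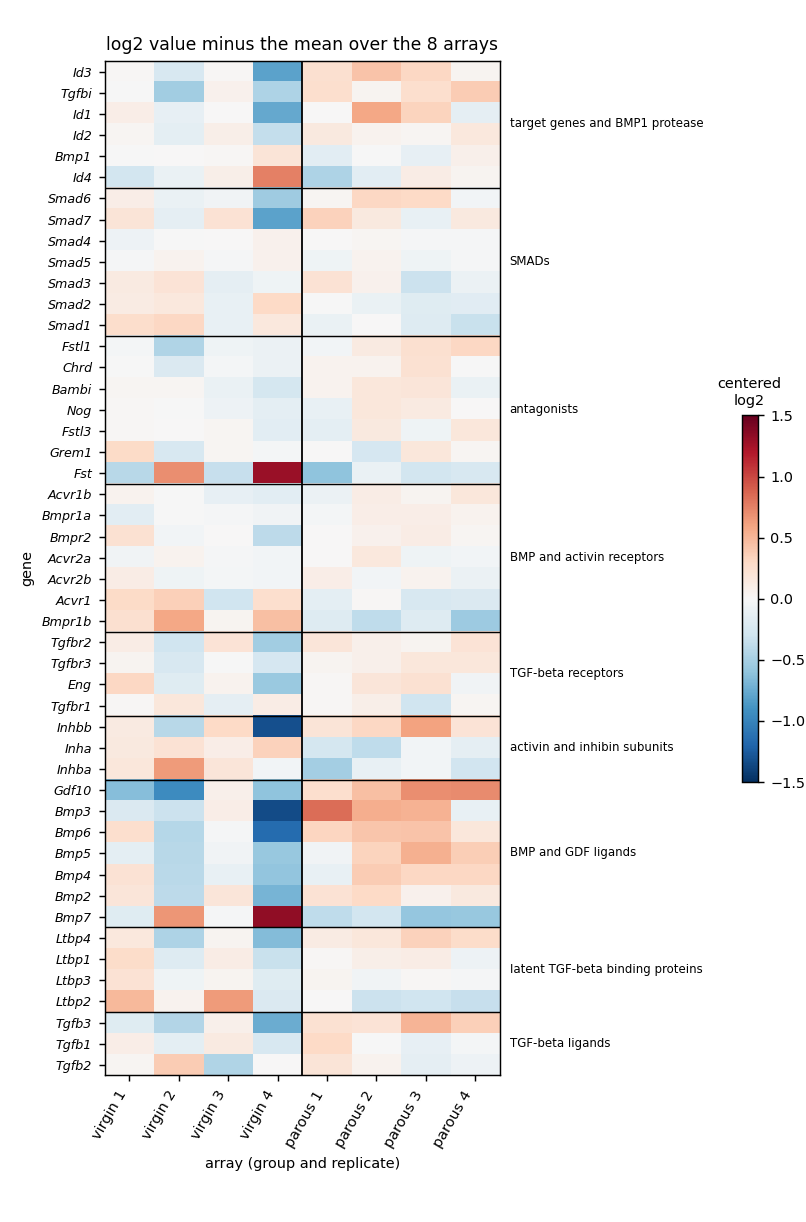
Log2 value of each of the 48 members on each array, centered on its mean over the 8 arrays, with members grouped by role (red above and blue below the mean). Virgin replicate 4 has the lowest value in 24 members and the highest in 8, and stands out among the BMP and GDF ligands.

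Further genes of the pathway were taken from a list of 74, of which 70 were measured. None passed the criteria. At the unadjusted limit 10 of the 70 were higher (against 6.54% of all genes) and 6 were lower (against 7.5% of all genes). The median log2 fold change was 0.06. The 4 with the lowest p were Htra3, Tmeff2, Tmeff1 and Smad9. Htra3, a secreted protease that binds TGF-beta ligands, was at 9.02, 9.27, 9.23 and 9.75 in parous and at 8.44, 7.49, 8.47 and 7.79 in virgin arrays, a difference of 1.27 with no overlap (standard error 0.25, adjusted p = 0.0968), and 0.86 without virgin replicates 2 and 4. The related membrane proteins Tmeff2 and Tmeff1, which carry follistatin-like domains, went in opposite directions, at 0.91 (adjusted p = 0.179) and -0.69 (adjusted p = 0.236), or 0.72 and -0.34 without these arrays. Smad9, the remaining SMAD of the BMP branch, had a difference of 0.43 (adjusted p = 0.239) on a dim probe set, and 0.44 without them.

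Of 28 genes known to respond to TGF-beta, 26 were measured, with a median log2 fold change of 0.01. At an unadjusted p under 0.05, 6 were higher (against 6.54% of all genes) and 5 lower (against 7.5% of all genes), and 1 passed the criteria. This was Tnc, the matrix protein tenascin C, at 10.59 to 10.86 in parous and 9.11 to 9.69 in virgin arrays, which is 1.25 higher on the log2 scale (standard error 0.14, adjusted p = 0.00939). Its adjusted p was 0.0513 without parous replicate 3. Without virgin replicates 2 and 4 the difference was 1.16, with an adjusted p of 0.0259. Of 18 genes known to respond to BMP, a list that shares the Id genes and other members with the set above, 17 were measured, with a median of 0.15. At an unadjusted p under 0.05, 3 were higher (against 6.54% of all genes) and 2 lower (against 7.5% of all genes), and 1 passed the criteria. Msx2, a homeobox transcription factor induced by BMP and present in mammary epithelium, was at 6.97, 7.03, 6.88 and 6.60 in parous and at 7.85, 8.69, 8.05 and 8.27 in virgin arrays. All parous arrays lay below all virgin arrays. The difference was -1.35 on the log2 scale (standard error 0.18, a 2.54-fold difference, adjusted p = 0.0215). It did not pass when virgin replicate 4 or any 1 of the parous arrays was left out (adjusted p up to 0.0905), or without virgin replicates 2 and 4 (log2 fold change -1.08, adjusted p = 0.0535). The BMP response genes thus lay in both directions, with Id3 at 0.51 and Msx2 at -1.35. The other lower gene was Dlx5, at -0.75 (adjusted p = 0.0816), and -0.57 without virgin replicates 2 and 4. Without these arrays none of the list was higher and 2 were lower at an unadjusted p under 0.05 (against 3.75% and 3.94% of all genes). The basal and hormone-sensing luminal scores were lower in the parous arrays, and their part in the level of Msx2 was not tested.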

How the data were processed

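The samples were 8 Affymetrix Mouse Gene 1.0 ST arrays, 1 per pool of 5 mice, and pools served as replicates. The deposited values are log2 RMA values, which the authors computed with the affy package (version not given in the sources used here). RMA corrects background, quantile-normalizes the arrays and summarizes probes to 1 value for each of 34760 probe sets. The number of arrays limits the precision.

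Here, the groups were compared in R 4.3.3 with limma 3.58.1 (lmFit and eBayes, no covariate, 2-sided). P-values were adjusted by Benjamini-Hochberg across every probe set of the table, and the criteria followed the methods. Exact permutation tests were added for single genes. Where a gene had several of the 21640 probe sets that name 1 gene, the one with the highest mean was used. Genes were matched by the symbol of the annotation. Listed genes not found that way were matched by their current symbol, updated through gene identifiers. A probe set was called dim when its mean lay below the lowest array median. Confidence intervals are at 95%. All members are named, those at an unadjusted p under 0.05 with every array. Of the other pathway and response genes, those that passed, or otherwise up to 4 with the lowest p, are named. Dlx5 is named besides, for its value. Of each marker list, at most the 4 with the highest means are named, beside those singled out for their values. The basal and myoepithelial list is named in full. Scores were not tested. The members, lists and alternatives were chosen with earlier results of these data known. The alternatives were another scaling, other variance models, other sets of probe sets and arrays, other criteria, unmoderated statistics, and the replicate number as a block. The procedure was tested on simulated data.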

Additional observations from a re-analysis of the deposited data

Results flagged for a closer look

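In 6 of the 96 groups of 4 arrays tested, which is about the 1 in 20 that chance gives, 1 array lay far from the other 3 of its group for a member. Ltbp2 was at 9.089 in parous replicate 1, against 8.736 to 8.784 in the other parous arrays. Bmp4 was at 9.841 in parous replicate 1, against 10.27 to 10.33. Acvr1 was at 9.213 in virgin replicate 3, against 9.762 to 9.864 in the other virgin arrays. Fstl1 was at 10.76 in virgin replicate 2, against 11.12 to 11.18. In virgin replicate 4, Fstl3 was at 9.579, against 9.739 to 9.771, and Bmp1 was at 10.46, against 10.26 to 10.29.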

How the results depend on the processing

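No member passed the criteria in any of the 17 alternative comparisons or with other fold change limits, except Gdf10 without virgin replicate 3, so that the count of higher members passing ran from 0 to 1 when 1 array was left out. Leaving out virgin replicates 2 and 4 gave 3 higher members at an unadjusted p under 0.05, against 11 on all arrays, and moved the median log2 fold change to 0.22 for BMP and GDF ligands, 0.219 for TGF-beta ligands, -0.0103 for TGF-beta receptors and 0.0918 for target genes and BMP1. When 1 array was left out, the median ran from 0.40 to 0.675 for BMP and GDF ligands, from 0.156 to 0.364 for target genes and BMP1 and from -0.0146 to 0.145 for TGF-beta ligands, the members at an unadjusted p under 0.05 ran from 5 to 14 higher and from 4 to 7 lower, and the members without overlap from 5 to 11 higher and from 4 to 7 lower. The low end of higher members at the unadjusted limit, 5, came without parous replicate 2 or 3. Without parous replicate 4 this count was 7 and without virgin replicate 2 it was 6. No share of all genes is given for the counts with 1 array left out, with unmoderated statistics or with the block, so they describe the members only. Groups of 3 and 4 arrays also separate by chance more easily than 4 and 4. With unmoderated statistics, as in the t-test that the study's general statistics section gives for comparisons (limma is named for the arrays), 7 members were higher at an unadjusted p under 0.05 and none passed after Benjamini-Hochberg adjustment. Centering each array on its median left 3 higher members without overlap. Leaving out dim probe sets moved the median of activin and inhibin subunits to 0.088, since Inha was then not counted. The causes of the other shifts were not tested. With the replicate number as a block, 20 members had an unadjusted p under 0.05, against 18, and 0 passed the criteria. Bmp4 and Tgfbr3 were then above this limit (unadjusted p of 0.0879 and 0.0542 from limma), and Inhbb, Id1, Smad6 and Acvr1 below it (0.0413, 0.0428, 0.044 and 0.0383). Deviations of arrays with the same number correlated at 0.115, 0.183, -0.057 and 0.307, and not every array correlated best with its own number. A figure legend of the study tells of 4 independent experiments with pools of both groups, but no source says that the replicate numbers stand for these experiments, so the numbers were not taken to pair the pools.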
